A study of Mus musculus with 32 samples.

Results

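Transcript levels were compared between CTCF AID mouse embryonic stem cells after 12 h of indole-3-acetic acid (IAA) and the same cells at 0 h, across all genes measured well enough to test. The table lists 14267 genes in 6 libraries, and every gene with a mean of at least 10 normalised counts over these libraries was taken, which gave 13699 genes. Map3k21, at a mean of 10.01, was the last gene inside this limit and Adgrf5, at 9.999, the first outside it. The comparison rests on 4 of the 32 libraries of the series, 2 for each time. All cells were of the line E14, carried the genotype CTCF AID, and were grown without feeder cells being named, on gelatin in serum-free medium with leukemia inhibitory factor and the inhibitors PD0325901 (of MEK) and CHIR99021 (of GSK3). The treated group received 500 µM IAA for 12 h and the other group had no IAA. The 24 h libraries entered the fit as a further group, and their values stand beside those of 12 h where a gene is named. The table holds no IAA-treated cells without the degron, so an effect of IAA itself and an effect of CTCF loss cannot be told apart within it, and the labels do not say whether the line is 1 clone or whether replicates came from separate cultures.

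CTCF is a zinc finger protein that binds a long, oriented DNA motif. Cohesin, a ring complex that extrudes DNA into loops, halts at bound CTCF, so pairs of CTCF sites anchor loops and the borders of contact domains, and CTCF bound close to a promoter can also act on that gene directly. In cells with an auxin-inducible degron (AID), an auxin such as IAA brings the tagged protein to a ubiquitin ligase and the proteasome removes it, while its mRNA is still made.

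The label was checked against marker genes. All 17 naive pluripotency markers were listed, and their summed level lay between 104494 and 106647 normalised counts in all 6 libraries. Ctcf (ENSMUSG00000005698.15, chr8:105636568-105682922, GRCm38) was at 3300 and 3253 at 0 h and at 4148 and 3881 at 12 h. The mRNA was thus higher at 12 h (log2 difference 0.29, SE 0.05, limma adjusted p = 0.00834), and the call was lost without 0 h replicate 2 or without 12 h replicate 1 (log2 differences from 0.24 to 0.34 over the 4 fits that leave out a library). Because the degron acts on the protein, this value does not check the depletion. Library totals lay between 15513445 and 16039750, replicates correlated with r of 0.987 at both times across genes, and the first principal component, with 53.1% of the variance, set the 0 h libraries apart from the others. Exons of other genes overlap Ctcf on the opposite strand, and whether counting used strand is not given in the sources used here.

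The response at 12 h was wide, and falls were larger than rises. limma called 2438 of the 13699 genes (17.8%) at an adjusted p under 0.05, 1287 higher (9.39%) and 1151 lower (8.4%). The called rises had a median log2 difference of 0.41, with quartiles at 0.28 and 0.68. The called falls had a median of -0.74, with quartiles at -1.36 and -0.42. Of the called genes, 174 rose at least 2-fold (1.27%) and 435 fell at least 2-fold (3.18%). Over all genes tested the median log2 difference was 0.000528. The calls also lay at different levels: the median level was 1255 normalised counts for genes called higher and 338 for genes called lower. Without any 1 of the 4 libraries the number called lay between 1007 and 1096, and fits that leave out a library assume that the lone sample of a group varies like the others.

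The share of genes called higher grew with level in every range, while the share called lower did not. Between 10 and 30 normalised counts, 1.91% of 1828 genes were called higher and 4.70% lower. Between 100 and 300, the shares were 4.94% and 10.3% of 2468 genes. At 3000 and over, 25.4% of 1091 genes were called higher and 9.53% lower. Precision differed along this axis, as the median SE of a log2 difference went from 0.459 in the lowest range to 0.0455 in the highest. Of the 277 rises at 3000 and over, 2 reached 2-fold, and 1 of the 104 falls did. Protein-coding genes were called more often (18.8% of 12582) than long intergenic noncoding RNAs (9.28% of 194), whose levels were not matched. The gene lists of later paragraphs are set beside all genes tested and were not matched for level either.

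**Figure D1:**
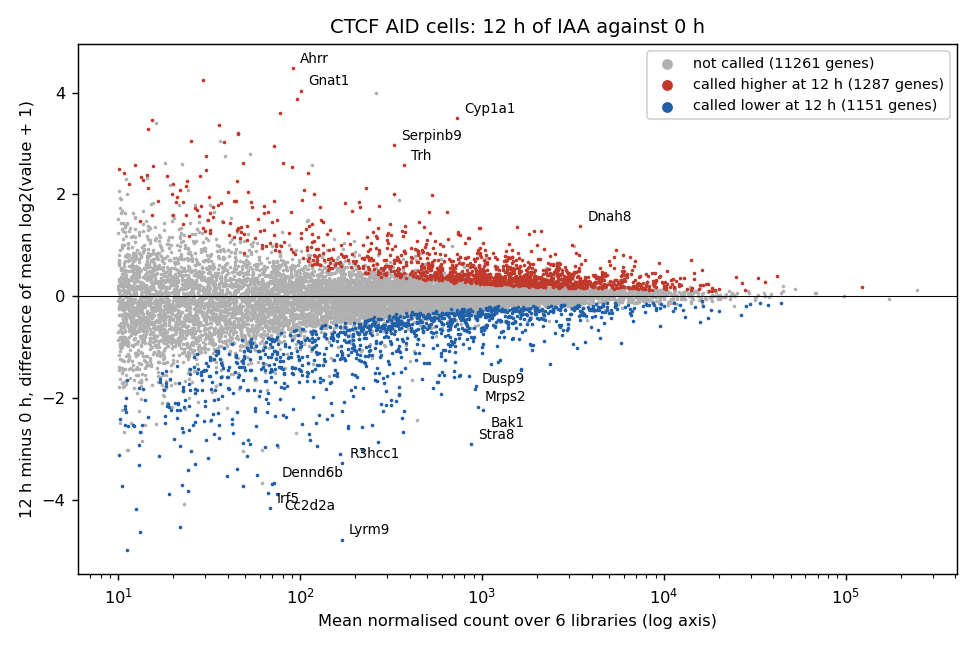
Each point is 1 of 13699 genes, placed by its mean normalised count over 6 libraries (log axis) and its 12 h minus 0 h difference of mean log2(value + 1). Blue points are the 1151 genes called lower and red points the 1287 genes called higher. At least 2-fold differences were found for 435 blue and 174 red points. Some named genes are labelled.

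**Figure D2:**
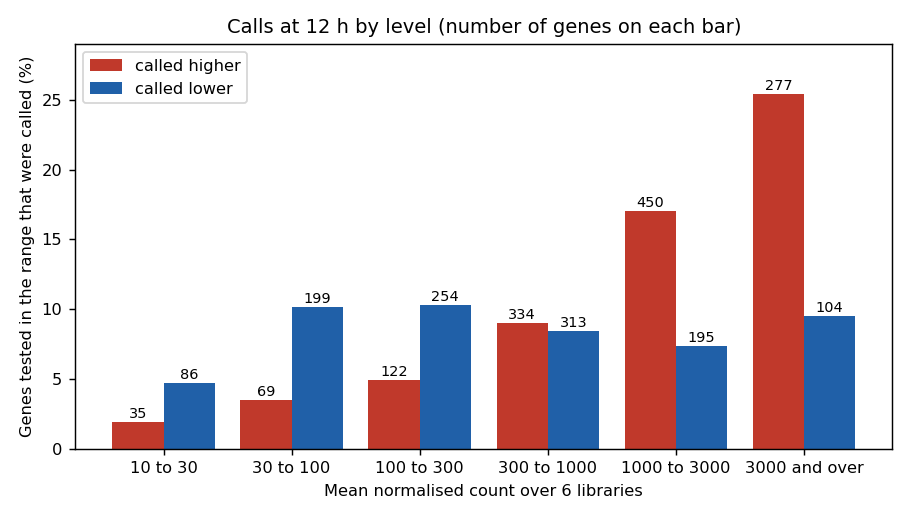
Bars give the percentage of tested genes called higher (red) or lower (blue) at 12 h in 6 ranges of mean normalised count, with the number of genes above each bar. The red bars grow from 1.91% to 25.4% while the blue bars stay between 4.70% and 10.3%.

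The deepest falls left genes at a few percent of their 0 h level. Lyrm9 (ENSMUSG00000072640.11, chr11:78826584-78846870, plus strand), of the LYR-motif protein family, went from 507 and 447 normalised counts at 0 h to 15.9 and 16.6 at 12 h, which is 3.41% of the 0 h mean (log2 difference -4.79, SE 0.24, limma adjusted p = 9.82e-05). The groups lie far apart and replicates agree closely, and at 24 h the gene was at 15.9 and 13.3. Irf5 (ENSMUSG00000029771.12, chr6:29526625-29541871), a transcription factor of innate immune signalling, was at 102 and 280 at 0 h and at 9.06 and 7.90 at 12 h (log2 difference -4.17, SE 0.52). Its 0 h libraries differ from each other, but both stand above both 12 h libraries, as the choice of these genes required. Cc2d2a (ENSMUSG00000039765.15, chr5:43662346-43740972), a component of the ciliary transition zone, was at 199 and 196 at 0 h and at 20.7 and 7.18 at 12 h (log2 difference -3.90, SE 0.50). Scn3a (ENSMUSG00000057182.15, chr2:65457118-65567627), a voltage-gated sodium channel subunit, was at 246 and 110 and then at 8.32 and 12.6 (log2 difference -3.88, SE 0.52). For both, the lowest 0 h library was several times the highest 12 h library.

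The other 6 of the 10 largest falls among genes at 100 or more were of the same order, with 12 h means between 7.44% and 10.1% of those at 0 h. Ankrd44, a subunit of protein phosphatase 6, went from 169 and 199 to 17.6 and 9.84 (log2 difference -3.70). Dennd6b, a DENN-domain regulator of Rab GTPases, went from 196 and 189 to 10.1 and 19.6 (log2 difference -3.67). The orphan nuclear receptor Nr2c1 went from 108 and 91.9 to 8.21 and 7.17 (log2 difference -3.54). In all of these the 12 h libraries lay far below the 0 h libraries. Rhou, a small GTPase, was at 159 and 129 and then at 13.9 and 9.55 (log2 difference -3.52). Fhad1, named for its forkhead-associated domain, was at 121 and 114 and then at 14.2 and 7.34 (log2 difference -3.40), with its call lost in 3 of the 4 fits that leave out a library (highest limma adjusted p 0.0581). R3hcc1, an R3H-domain protein, was at 425 and 449 and then at 39.0 and 49.6 (log2 difference -3.28, SE 0.23, limma adjusted p = 0.000252). Exons of another gene on the opposite strand overlap Irf5 (with Tnpo3), Ankrd44 and Fhad1, and counting without strand would mix the reads of both genes.

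Among genes with a mean of at least 1000 normalised counts over the 4 libraries, a level that also depends on transcript length, Stra8 had the largest fall. Stra8 (ENSMUSG00000029848.11, chr6:34920163-34939344), a retinoic acid-induced gene needed to start meiosis in germ cells, was at 2162 and 1938 at 0 h and at 272 and 271 at 12 h (log2 difference -2.91, SE 0.14, limma adjusted p = 9.82e-05). Bak1 (ENSMUSG00000057789.14, chr17:27019810-27029009), a pore-forming pro-apoptotic protein of mitochondria, was at 2340 and 2109 and then at 438 and 497 (log2 difference -2.25, SE 0.14). Mrps2 (ENSMUSG00000035772.11, chr2:28468066-28471178), a protein of the small mitochondrial ribosome subunit, was at 2000 and 2047 and then at 451 and 444 (log2 difference -2.17, SE 0.08). In each of these the 12 h mean was between 13.2% and 22.1% of the 0 h mean. Dusp9 (ENSMUSG00000031383.8, chrX:73639419-73643514), a phosphatase that inactivates ERK, was at 1709 and 1799 and then at 490 and 499 (log2 difference -1.82, SE 0.07). Grk2, a kinase that desensitises G protein-coupled receptors, was at 1903 and 1412 and then at 443 and 516 (log2 difference -1.78, SE 0.27). Grk2 had the widest spread between 0 h replicates of the 5, and its groups still did not overlap. Exons of Ggnbp1 overlap Bak1 on the opposite strand.

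**Figure D3:**
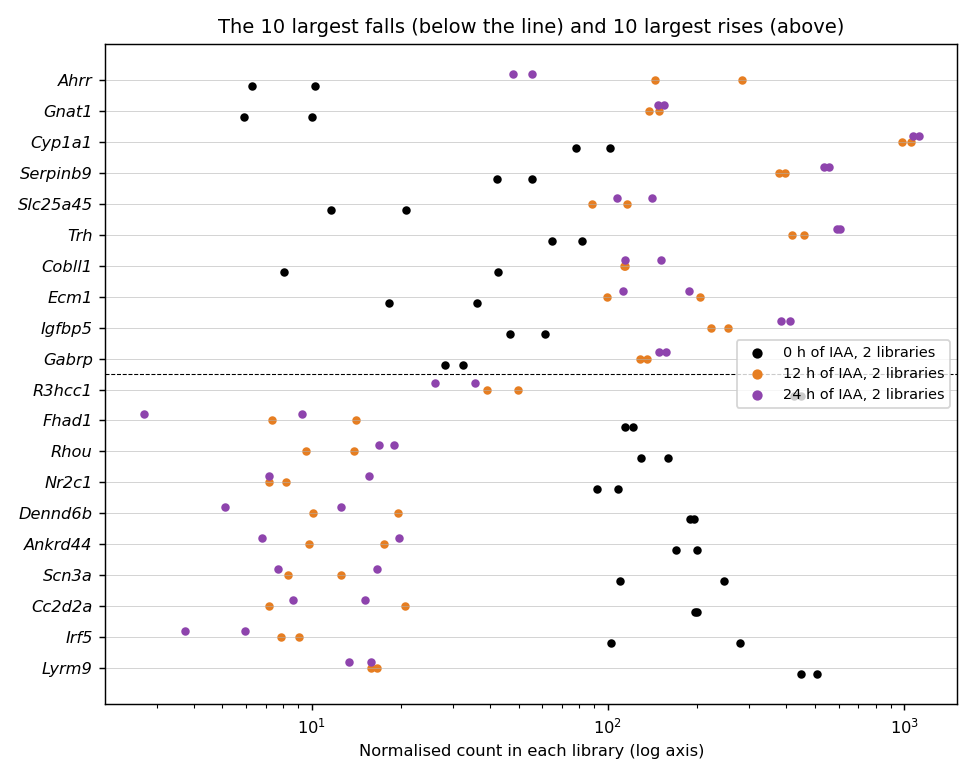
Normalised counts (log axis) of the 10 largest falls, below the dashed line, and the 10 largest rises, above it. They are the largest among called genes with the higher group at 100 or more, groups apart and no provisional symbol. Each library has 1 point, at 0 h (black), 12 h (orange) or 24 h (purple). The choice of these 20 genes required that the 0 h and 12 h points not overlap, so their separation is not a result. Ahrr alone among the rises has 24 h points (47.7 and 55.5) below both 12 h points (284 and 145).

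The letters of promoters were read for the core of the CTCF motif, because CTCF is known to bind close to some start sites. The core was searched as CCANNAG directly followed by NNGGC, on both strands, in promoters of 300 bases, from 250 before to 50 after a gene's start, taken from RefSeq on GRCm38.p6. Of 32851 promoters in that table, 2.43% hold it. Of Ctcf, the 20 largest rises and falls and the 10 genes of higher level, 26 of 31 had a promoter in the table, and of these 26 only that of Dennd6b matched. The 250 bases upstream of its start (chr15:89196475-89196724, minus strand) are printed with the match in capitals, which here reads on the opposite strand.
Dennd6b: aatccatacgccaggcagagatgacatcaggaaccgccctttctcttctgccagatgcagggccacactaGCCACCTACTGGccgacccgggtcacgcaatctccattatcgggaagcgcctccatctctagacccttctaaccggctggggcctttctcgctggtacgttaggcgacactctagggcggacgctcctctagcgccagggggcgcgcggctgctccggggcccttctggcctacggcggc

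The 8 genes that fell at least 4-fold and hold the core near the start are shown next, to let their sites be compared; they were picked after their values were seen. Each run of 30 bases is read on the strand on which the core stands, with the core in capitals.
Irf8: ccctaactgCCACCAGTGGGCttggaaggg
Dennd6b: ccgggtcggCCAGTAGGTGGCtagtgtggc
Lyrm7: gattggttgCCAAGAGGGGGCgccctcaga
Hsd3b7: gtggactggCCACCAGGGGGCactctggca
Adprhl2: gactccgggCCACAAGGGGGCgctgtgggg
Fam199x: ccgggtagcCCAGGAGCTGGCagcggccac
Nudt17: cgagctgggCCACCAGGGGGCgccaggcaa
Dcaf12l1: catgcccagCCAGAAGGGGGCggtaggcag
The sites lie at chr8:120738636-120738665 (Irf8, minus strand), chr15:89196634-89196663 (Dennd6b, plus strand), chr11:54860595-54860624 (Lyrm7, minus strand), chr7:127800499-127800528 (Hsd3b7, plus strand), chr4:126321739-126321768 (Adprhl2, minus strand), chrX:137049523-137049552 (Fam199x, plus strand), chr3:96708557-96708586 (Nudt17, minus strand) and chrX:44790334-44790363 (Dcaf12l1, plus strand).

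In each of these 8 genes both 12 h libraries lay below both 0 h libraries. Adprhl2, an enzyme that removes ADP-ribose from proteins, was at 440 and 381 at 0 h and at 70.4 and 67.1 at 12 h (log2 difference -2.56, SE 0.17, limma adjusted p = 0.000217). Hsd3b7, an enzyme of bile acid synthesis, was at 105 and 124 and then at 12.1 and 17.4 (log2 difference -2.89, SE 0.38). Fam199x was at 576 and 558 and then at 135 and 123 (log2 difference -2.13, SE 0.13). Replicates of Adprhl2 and Fam199x lie close together, and those of Hsd3b7 less so. Dcaf12l1, a WD40-repeat protein, was at 708 and 652 and then at 163 and 162 (log2 difference -2.06, SE 0.11). Nudt17, of the Nudix hydrolase family, was at 35.6 and 55.7 and then at 7.44 and 12.0 (log2 difference -2.12, SE 0.49). The call of Nudt17 was lost in all 4 fits that leave out a library (limma adjusted p from 0.0674 to 0.155). Lyrm7, of the LYR-motif family, was at 46.02 and 173 and then at 9.17 and 9.32 (log2 difference -3.14, SE 0.87, limma adjusted p = 0.0478). Its 0 h libraries differ widely, and its call was lost in all 4 fits that leave out a library (log2 differences from -4.09 to -2.20). Irf8, an interferon regulatory factor, was at 31.7 and 42.1 and then listed at 0 and 1.26. A comparison of motif shares between gene sets is void, because promoters were matched for only 77.2% of the genes called lower and 75.1% of those tested, under the 80% asked of such a check. As a description of the matched genes alone, the core was held by 61 of 888 genes called lower (6.87%), 31 of 1008 called higher (3.08%) and 345 of 10284 tested (3.35%). Binding of CTCF was not measured in these libraries, and a match is a run of letters and not a bound site.

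Genes of the aryl hydrocarbon receptor pathway were among the largest rises. The receptor (Ahr) binds small aromatic molecules, pairs with Arnt on DNA and switches on enzymes that oxidise such molecules, and its repressor Ahrr is itself a target. Of the 10 genes of this list, 6 were called higher and none lower, with a median log2 difference of 0.67, against 9.39% and 8.4% called and a median of 0.000528 over all genes tested. Ahrr (ENSMUSG00000021575.16, chr13:74211118-74292331) was at 10.3 and 6.30 at 0 h and at 284 and 145 at 12 h, 25.8-fold higher (log2 difference 4.49, SE 0.39, limma adjusted p = 0.000605). The 12 h libraries differ from each other, and at 24 h Ahrr was at 47.7 and 55.5, between the other groups. Cyp1a1 (ENSMUSG00000032315.6, chr9:57687928-57703824), the best-known target, was at 101 and 78.1 at 0 h and at 981 and 1050 at 12 h, 11.3-fold higher (log2 difference 3.50, SE 0.13, limma adjusted p = 7.6e-05). Cyp1b1, a related P450 enzyme, was at 5.08 and 4.27 and then at 60.8 and 43.9 (log2 difference 3.22, SE 0.32). Cyp1a2, next to Cyp1a1 on chromosome 9, was at 9.08 and 10.7 and then at 26.7 and 45.7 (log2 difference 1.73, SE 0.40). Both groups of each gene stand apart, but the call of Cyp1a2 was lost in all 4 fits that leave out a library (limma adjusted p from 0.0518 to 0.147), and its sequence is similar to that of Cyp1a1.

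The remaining members of the list moved less. Nqo1, a quinone reductase shared with the oxidative stress response, was at 1562 and 1494 at 0 h and at 2864 and 2951 at 12 h (log2 difference 0.93, SE 0.05). Tiparp, an enzyme that modifies the receptor with ADP-ribose, was at 614 and 607 and then at 760 and 762 (log2 difference 0.32, with its call lost in all 4 fits that leave out a library, limma adjusted p from 0.103 to 0.119). Both were higher in each 12 h library. Ahr itself had a log2 difference of -0.41 that missed the threshold (limma adjusted p = 0.0731). The promoters of Cyp1a1, Ahrr and Cyp1b1 are printed because these genes moved together. The capitals mark GCGTG, the core letters of the element bound by the receptor with Arnt, on either strand. The stretches are the 250 bases before each start, chr9:57697363-57697612 (plus strand), chr13:74292332-74292581 (minus strand) and chr17:79715062-79715311 (minus strand), from RefSeq on GRCm38.p6.
Cyp1a1: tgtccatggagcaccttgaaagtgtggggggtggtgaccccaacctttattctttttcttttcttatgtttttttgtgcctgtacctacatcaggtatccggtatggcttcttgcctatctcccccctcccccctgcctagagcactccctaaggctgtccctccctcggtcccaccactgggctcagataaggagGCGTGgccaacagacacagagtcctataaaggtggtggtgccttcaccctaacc
Ahrr: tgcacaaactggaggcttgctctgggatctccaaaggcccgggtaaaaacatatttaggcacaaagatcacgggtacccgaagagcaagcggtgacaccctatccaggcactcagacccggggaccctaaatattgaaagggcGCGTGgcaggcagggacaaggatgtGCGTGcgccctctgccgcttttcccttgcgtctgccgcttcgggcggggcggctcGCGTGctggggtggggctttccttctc
Cyp1b1: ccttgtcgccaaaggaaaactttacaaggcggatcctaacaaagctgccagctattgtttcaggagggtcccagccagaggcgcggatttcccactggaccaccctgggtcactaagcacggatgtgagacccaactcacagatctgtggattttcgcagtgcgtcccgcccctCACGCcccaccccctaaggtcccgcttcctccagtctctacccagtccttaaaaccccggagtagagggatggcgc
Ahrr holds 3 matches in this stretch and the other genes 1 each. These 5 letters are common: 56.2% of the 10284 tested genes with a promoter in the table hold them within 300 bases, and 5 of the 7 list members with one do.

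The other large rises came from genes of unrelated function. Gnat1 (ENSMUSG00000034837.12, chr9:107674474-107679712), the transducin subunit of rod photoreceptors, was at 5.92 and 10.02 at 0 h and at 148 and 138 at 12 h (log2 difference 4.04, SE 0.28, limma adjusted p = 0.000238). Serpinb9 (ENSMUSG00000045827.10, chr13:33003250-33017957), an inhibitor of granzyme B with close relatives beside it, was at 55.5 and 42.2 and then at 395 and 379 (log2 difference 2.97, SE 0.16). Trh (ENSMUSG00000005892.4, chr6:92242061-92244650), the precursor of thyrotropin-releasing hormone, was at 81.4 and 64.5 and then at 459 and 418 (log2 difference 2.58, SE 0.14). Replicates of these 3 genes lie close together, and groups without overlap were a condition of their choice. Slc25a45, of the mitochondrial carrier family, was at 11.6 and 20.9 and then at 116 and 88.5 (log2 difference 2.62). Igfbp5, which binds insulin-like growth factors, was at 46.9 and 61.4 and then at 255 and 222 (log2 difference 2.13). Gabrp, a GABA receptor subunit, was at 28.2 and 32.5 and then at 128 and 135 (log2 difference 2.08). Less even were Ecm1 and Cobll1. Ecm1, a secreted matrix protein, was at 18.3 and 36.04 and then at 205 and 99.4 (log2 difference 2.43, SE 0.46), and its call was lost without 0 h replicate 1 (log2 difference 1.96) or 12 h replicate 1 (1.91). Cobll1, an actin-binding protein of the cordon-bleu family, was at 8.04 and 42.5 and then at 114 and 113 (log2 difference 2.53, SE 0.64), and its call was lost without either 12 h library (log2 differences from 1.40 to 3.67 over the 4 fits, highest limma adjusted p 0.145).

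Among genes with a mean of at least 1000, the 5 largest rises were smaller, between 2.35-fold and 2.61-fold. Dnah8, an axonemal dynein heavy chain, was at 1609 and 1670 at 0 h and at 4607 and 3937 at 12 h (log2 difference 1.38, SE 0.08, limma adjusted p = 0.000144). Gpx2, a glutathione peroxidase, was at 615 and 667 and then at 1591 and 1708 (log2 difference 1.36). Mitf, a transcription factor of melanocytes and of lysosomal genes, was at 985 and 938 and then at 2398 and 2261 (log2 difference 1.28). The groups of each gene do not overlap, and 31% of all genes tested were higher at 12 h without overlap. Rragd, a Rag GTPase that reports amino acids to mTORC1 at the lysosome, was at 953 and 977 and then at 2364 and 2300 (log2 difference 1.27, SE 0.05). Ifitm1, an interferon-inducible membrane protein, was at 813 and 800.5 and then at 1932 and 1860 (log2 difference 1.23, SE 0.05), and went on to 2789 and 2706 at 24 h. Exons of another gene overlap Dnah8 on the opposite strand.

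Clustered protocadherins and Hoxa genes belong to families known for CTCF sites within the cluster, and many of them fell. Of 12 clustered protocadherins tested, which give neurons their surface identity, 7 were called lower (58.3%, against 8.4% of all genes), 1 higher and 4 were not called, with a median log2 difference of -1.70. Pcdhga7 was at 20.2 and 46.8 at 0 h and listed at 0 in both 12 h libraries. Pcdhga2 was at 32.4 and 33.4 and then at 2.99 and 6.09 (log2 difference -2.67), and Pcdhga10 at 68.0 and 71.3 and then at 19.9 and 6.96 (log2 difference -2.45). Pcdhgc3, the member called higher, was at 539 and 512 and then at 651 and 689 (log2 difference 0.35). Members of this cluster share their last exons, so reads could have been split between them. The calls of Pcdhga2 (log2 differences from -3.09 to -2.26), Pcdhga8 (-2.85 to -2.21) and Pcdhgc3 (0.31 to 0.39) were lost in all 4 fits that leave out a library. That of Pcdhga10 was kept only without 12 h replicate 1 (-3.15 to -1.76 over the 4 fits), and that of Pcdhga7 was lost without 0 h replicate 2 (-4.41, limma adjusted p = 0.0612).

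All 6 tested genes of the Hoxa cluster fell, while none of the 4 Hoxb, 6 Hoxc and 3 Hoxd genes was called. Hox genes encode the transcription factors that pattern the body axis and are mostly silent in embryonic stem cells. Hoxa9 was at 42.7 and 74.6 at 0 h and at 3.00 and 0.524 at 12 h (log2 difference -4.54, SE 0.64), and Hoxa10 was at 41.4 and 28.2 and then at 2.37 and 2.72 (log2 difference -3.31). Further called members had log2 differences of -2.64 (Hoxa3) and -2.11 (Hoxa7), and Hoxa2 went from 25.1 and 18.4 to 4.96 and 4.32. Every 12 h library was below every 0 h library for all 6, as was the case for 30.7% of all genes tested. Of all 19 Hox genes tested 14 were lower in this way, so it was not particular to Hoxa. The lowest log2 differences were -2.49 in Hoxb and -1.67 in Hoxd, neither called. Halr1, a noncoding RNA upstream of the cluster, was at 54.4 and 51.4 and then at 6.20 and 5.72 (log2 difference -2.95). Medians were -2.37 for Hoxa, -0.81 for Hoxb, -0.35 for Hoxc and -0.75 for Hoxd, and no test of the difference between clusters was made. The calls of Hoxa2, Hoxa3 and Hoxa7 were lost in all 4 fits that leave out a library (lowest limma adjusted p 0.0824, 0.0709 and 0.0532), and that of Hoxa10 without 0 h replicate 1 (log2 difference -3.04, limma adjusted p = 0.0726). Exons of antisense RNAs overlap Hoxa3 and Hoxa7.

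**Figure D4:**
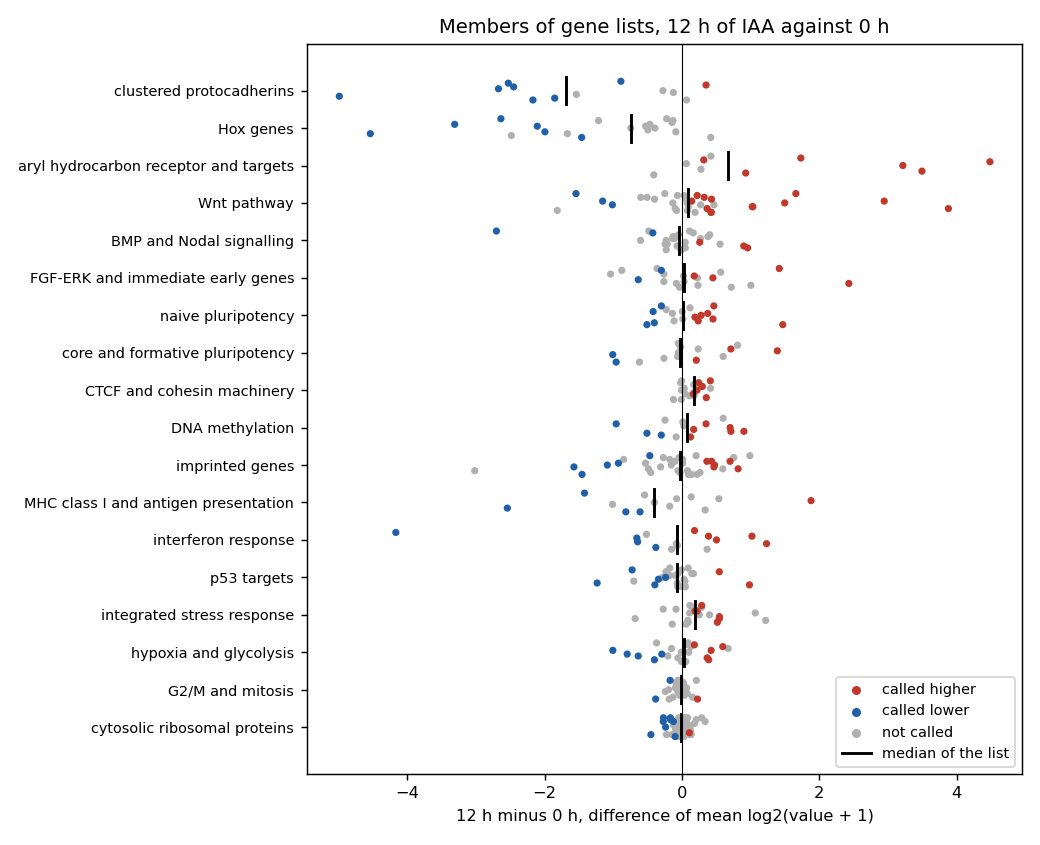
Each point is 1 tested member of 18 gene lists, placed by its 12 h minus 0 h difference of mean log2(value + 1), and coloured by whether it was called higher (red), lower (blue) or not called (grey), with a black bar at the list's median. The protocadherins and Hox genes lie furthest to the left (medians -1.70 and -0.75) and the aryl hydrocarbon receptor genes furthest to the right (0.67). The position of Pcdhga7 at -4.99 depends on the 1 added to values listed at 0.

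CHIR99021, present in both groups, blocks the kinase that marks beta-catenin for destruction, so the medium itself stimulates the Wnt pathway. Of 33 genes of the pathway tested, 13 were called higher (39.4%) and 3 lower (9.09%), against 9.39% and 8.4% of all genes, with a median log2 difference of 0.09. Among the targets and feedback inhibitors, Dkk1, a secreted inhibitor, was at 4.18 and 6.14 at 0 h, at 77.5 and 101 at 12 h and at 203 and 185 at 24 h (log2 difference at 12 h 3.88, SE 0.28, limma adjusted p = 0.000287). T (brachyury), a mesoderm transcription factor, was at 8.93 and 6.80, then at 54.0 and 82.7 and then at 130 and 146 (log2 difference 2.95). Sp5 was at 226 and 182, then at 649 and 636 and then at 1050 and 1109 (log2 difference 1.66). In each of these 3 genes the groups are ordered 0 h, 12 h, 24 h with no overlap. Lef1, the DNA-binding partner of beta-catenin, was at 44.8 and 47.2 and then at 122 and 142, and Axin2, a scaffold of the destruction complex, at 759 and 869 and then at 1607 and 1720 (log2 difference 1.03). Against these, Cdx1, also a target, fell from 878 and 1005 to 321 and 321 (log2 difference -1.54, SE 0.10), and the receptors Fzd9 (log2 difference -1.16) and Fzd4 (-1.01) fell too. The call of Fzd9 was lost in all 4 fits that leave out a library (limma adjusted p from 0.0709 to 0.148), and that of Fzd4 was kept only without 12 h replicate 1 (highest limma adjusted p 0.0743).

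In the BMP and Nodal list the shares called were near those of all genes. Of 27 genes, 3 were called higher (11.1%, against 9.39%) and 2 lower (7.41%, against 8.4%), with a median of -0.05. Inhbb, the beta-B chain of activins and inhibins, was at 263 and 269 at 0 h and at 40.8 and 39.1 at 12 h (log2 difference -2.70, SE 0.19, limma adjusted p = 0.000287). Lefty2, an antagonist of Nodal, was at 686 and 666 and then at 1301 and 1223 (log2 difference 0.90), and Nodal was at 953 and 999 and then at 729 and 724 (log2 difference -0.43). The call of Nodal was lost without 0 h replicate 2 (log2 difference -0.39, limma adjusted p = 0.0562). Of 20 FGF-ERK and immediate early genes, 4 were called higher (20%) and 2 lower (10%), with a median of 0.03. Myc was at 47.5 and 42.8 and then at 121 and 123 (log2 difference 1.42), and Ier2 at 769 and 771 and then at 465 and 526 (log2 difference -0.64). PD0325901 blocks ERK activation in both groups.

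Pluripotency genes changed in both directions. Of the 17 naive markers, 7 were called higher and 4 lower (41.2% and 23.5%, against 9.39% and 8.4% of all genes, median 0.01), and of 14 core and formative genes, 3 higher and 2 lower (21.4% and 14.3%, median -0.04). Dppa3, a maternal factor that marks the naive state, was at 158 and 148 at 0 h, at 415 and 434 at 12 h and at 768 and 787 at 24 h (log2 difference at 12 h 1.47, SE 0.10, limma adjusted p = 0.000218). Nanog was at 15808 and 15637 and then at 11846 and 11924 (log2 difference -0.40), and Prdm14 at 976 and 956 and then at 676 and 679 (log2 difference -0.51). Both fell in each 12 h library. Tdh, a threonine dehydrogenase of naive cells, was at 6680 and 6816 and then at 9271 and 9341 (log2 difference 0.46). For Pou5f1 (log2 difference -0.05, SE 0.03, limma adjusted p = 0.277) and Sox2 (-0.02, SE 0.04, 0.762) the test was not passed. Lin28a, an RNA-binding protein of primed cells, was at 173 and 159 and then at 453 and 420 (log2 difference 1.39).

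DNA methylation genes included some that moved against each other. Of 14 tested, 6 were called higher (42.9%) and 3 lower (21.4%), against 9.39% and 8.4% of all genes, with a median of 0.08. The de novo methyltransferase Dnmt3a was at 905 and 1076 at 0 h and at 474 and 543 at 12 h (log2 difference -0.96, SE 0.15, limma adjusted p = 0.00629), with its call lost without 12 h replicate 1 (-0.86, limma adjusted p = 0.0518). Its relative Dnmt3b was at 963 and 1002 and then at 1572 and 1648 (log2 difference 0.71). Tet1, which oxidises methylcytosine, was at 5024 and 5493 and then at 8699 and 8381 (log2 difference 0.70). Zfp57, which protects methylation at imprinted loci, was at 3487 and 3590 and then at 6284 and 6952 (log2 difference 0.90). For the 3 genes that rose, both 12 h libraries lay above both 0 h libraries. Of 369 Zfp zinc finger genes, 29 were called higher (7.86%, against 9.39% of all genes) and 13 lower (3.52%, against 8.4%), with Zfp764 at 63.3 and 59.3 and then at 6.81 and 6.24 (log2 difference -3.05).

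Markers of other lineages moved in both directions. Of 19 primitive endoderm markers 10 were listed, and of the 9 tested 1 was called higher and 1 lower (11.1% each, against 9.39% and 8.4% of all genes). Their sum was 12769 and 12092 at 0 h and 12377 and 12408 at 12 h. The summed primitive streak and mesoderm markers went from 1190 and 1304 to 619 and 708. Cdx1 made up most of the 0 h sum, and the fall of the sum in counts was about that of Cdx1 alone. Of the 8 tested, 1 was called higher (T, log2 difference 2.95) and 1 lower (Cdx1, -1.54), 12.5% each. The summed neural markers went from 2845 and 2880 to 3720 and 3541, with 2 of the 6 tested called higher (33.3%) and 1 lower (16.7%). Tubb3, a tubulin of neurons, was at 766 and 783 and then at 1366 and 1343 (log2 difference 0.81). Of 8 trophoblast markers tested 2 were lower (25%): Esx1, a homeobox gene of the placenta, was at 134 and 136 and then at 34.3 and 30.1 (log2 difference -2.03, SE 0.23). Of 12 fibroblast and feeder markers 4 were listed, and their sum was 330 and 347 at 0 h and 157 and 152 at 12 h. Pdgfrb, a growth factor receptor, makes up most of this sum and fell from 206 and 217 to 68.7 and 83.5 (log2 difference -1.47). The collagen Col1a1 was at 15.7 and 12.3 and then at 15.9 and 20.9, and Col1a2, Col3a1, Dcn and Lum were not among the genes analysed here. In bulk libraries fewer cells of a type and less RNA per cell cannot be told apart, and the part of such cells in these results was not tested.

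Genes of stress and immune lists changed in both directions, and the shares of all genes called, 9.39% higher and 8.4% lower, are the background for each list. Of 24 p53 targets, 2 were called higher (8.33%) and 5 lower (20.8%), with a median of -0.07. Cdkn1a, the p21 inhibitor of the cell cycle, was at 3140 and 3268 at 0 h and at 1910 and 1958 at 12 h (log2 difference -0.73, SE 0.05, limma adjusted p = 0.000238), and Pmaip1, a BH3-only inducer of apoptosis, at 152 and 148 and then at 67.2 and 59.1 (log2 difference -1.24). Of 21 genes of the integrated stress response, which ATF4 drives, 6 were higher (28.6%) and none lower (median 0.19). The largest of these were small: Nupr1 and Sesn2 had log2 differences of 0.54 and Trib3 of 0.51, the call of Trib3 being kept only without 12 h replicate 1 (highest limma adjusted p 0.0745). Of 22 hypoxia and glycolysis genes 5 were higher and 5 lower (22.7% each), with Vegfa at 1300 and 1198 and then at 726 and 708 (log2 difference -0.80) and Hk2, a hexokinase, at 5079 and 5314 and then at 7468 and 8227 (log2 difference 0.59). Of 14 interferon genes 5 were higher (35.7%) and 4 lower (28.6%). Of 13 genes of MHC class I and antigen presentation 1 was higher (7.69%) and 4 were lower (30.8%). H2-K1 fell from 695 and 598 to 221 and 262 (log2 difference -1.42), while H2-Q10 rose from 21.2 and 13.7 to 55.4 and 77.2 (log2 difference 1.88, and 1.64 with limma adjusted p = 0.0642 without 12 h replicate 2). H2 genes are near-identical copies, and their reads may have been divided.

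Ribosomal protein, respiratory chain and mitosis genes had few rises, and their shares of falls were near the 8.4% of all genes. Of 82 cytosolic ribosomal protein genes 1 was called higher (1.22%, against 9.39%) and 8 lower (9.76%), with a median of -0.01, and the largest of these differences was that of Rpl36, from 2051 and 2190 to 1490 and 1607 (log2 difference -0.45), a family with many pseudogene copies. Its call was lost in all 4 fits that leave out a library (limma adjusted p from 0.0888 to 0.156). Of 83 nuclear genes of the mitochondrial respiratory chain 1 was higher and 7 lower (8.43%), with a median of -0.03. Ndufb7, a subunit of complex I, was at 724 and 801 and then at 345 and 354 (log2 difference -1.12, SE 0.13, limma adjusted p = 0.00168), the largest difference in that list. Of 26 G2/M and mitosis genes 1 was higher (3.85%) and 2 lower (7.69%), with a median of -0.01. Of all genes, 17.0% at levels of 1000 to 3000 and 25.4% at 3000 and over were called higher, and lists were not matched for level. In the CTCF and cohesin list, 7 of 19 were higher (36.8%) and none lower (median 0.17). Beside Ctcf itself these included the cohesin subunits Stag1, at 3649 and 3158 and then at 4669 and 4373 (log2 difference 0.41), and Smc1a (log2 difference 0.29). The call of Stag1 was kept only without 0 h replicate 1 (log2 differences from 0.31 to 0.52), and that of Smc1a was lost without replicate 1 of either time (lowest value 0.23). Rad21 was at 8435 and 8440 and then at 7866 and 7611 (log2 difference -0.12, limma adjusted p = 0.0527). Of 15 NuRD genes 3 were higher (20%) and 1 lower (6.67%).

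Called genes had a neighbour called in the same direction more often than the average gene, and most had none. For each gene the nearest start of another tested gene was taken from the GENCODE M21 annotation. Over all genes tested, 8.97% had a neighbour called higher and 7.89% one called lower. Of the 1287 genes called higher, 188 had a neighbour called higher (14.6%), and of the 1151 called lower, 166 had one called lower (14.4%). Of the 174 genes that rose at least 2-fold, 44 had a neighbour called higher (25.3%) and 14 one called lower (8.05%). Of the 435 that fell at least 2-fold, 68 had a neighbour called lower (15.6%) and 22 one called higher (5.06%). Leaving out neighbours whose exons overlap gave 24.5% and 14.6% for the same direction in these 2-fold sets. Genes side by side are not independent, and no test was made.

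Pairs of this kind included genes of related and of unrelated function. Gnat1 and Slc38a3, an amino acid transporter, start 10182 bases apart, and Slc38a3 was at 12.5 and 1.85 at 0 h and at 56.9 and 43.4 at 12 h (log2 difference 3.03). Serpinb9b, whose start is 24166 bases from that of Serpinb9, was at 69.1 and 52.7 and then at 237 and 197 (log2 difference 1.82). In both pairs every 12 h library was above every 0 h library, and the call of Slc38a3 was lost without either 12 h library (highest limma adjusted p 0.122). Among the falls, Adprhl2 and the sperm tail gene Tekt2 (log2 differences -2.56 and -1.70) start 3985 bases apart, Cdx1 and Pdgfrb (-1.54 and -1.47) 8951 bases, and Man2a2, a Golgi mannosidase, and Fes, a tyrosine kinase (-1.86 and -1.87), 16571 bases. Myo1f, an unconventional myosin, was at 594.5 and 501 and then at 58.1 and 74.4 (log2 difference -3.03), and Adamts10, a secreted protease 31503 bases away, was at 267 and 225 and then at 116 and 116 (log2 difference -1.07). When 1 library was left out, the call of Fes was lost in all 4 fits (highest limma adjusted p 0.131), that of Tekt2 was kept only without 0 h replicate 2 (highest 0.147), and so was that of Adamts10 (highest 0.0665). These pairs were picked after their values were seen.

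The genes were then followed into libraries that shared none with this comparison, normalised in separate tables: CTCF AID cells labelled serum with 12 h of IAA, CTCF AID cells of an overexpression experiment in control, wild-type CTCF and mutated CTCF versions with or without IAA, and RAD21 AID cells with 12 h of 1 µM 5-Ph-IAA. Of the 435 genes that fell at least 2-fold, 400 were tested in serum, where 144 were called lower (36%, against 9.25% of all genes there) and 14 higher. In the overexpression control 185 of 410 were called lower (45.1%, against 12.5%) and 26 higher. In RAD21 AID cells 29 of 420 were lower (6.90%, against 6.35%) and 20 higher. These shared genes are 10.7%, 10.6% and 3.33% of the genes called lower in the respective table. Of the 174 genes that rose at least 2-fold, 62 of 139 were called higher in serum (44.6%, against 7.73%), 86 of 169 in the control (50.9%, against 12.8%) and 9 of 133 in RAD21 AID cells (6.77%, against 6.66%), which are 5.53%, 4.82% and 0.984% of the genes called higher there. Among genes tested in both, 128 of 387 falls (33.1%) and 47 of 137 rises (34.3%) were called the same way in serum and in the control, and 189 falls (48.8%) and 48 rises (35.0%) in neither.

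Several falls that recurred were weaker where wild-type CTCF had been added. Of the 410 genes with a 2-fold fall tested there, 107 were still called lower with wild-type CTCF (26.1%), against 185 in the control. With wild-type CTCF, 1435 of all 13938 genes were called lower. The median log2 difference of the 410 was -0.31 with wild-type CTCF and -0.68 in the control. The 8 genes below are those called lower in the control among the 10 largest falls and the 5 falls of higher level. Other falls named in the text were not followed here. Mrps2 was at 1192 and 1187 without and at 262 and 254 with IAA in serum (log2 difference -2.20), and at 2329 and 2379 and then at 467 and 497 in the overexpression control (-2.29). With wild-type CTCF added it was at 2417 and 2474 and then at 1816 and 1952 (-0.38). The IAA effect with wild-type CTCF thus differed from that in the control by 1.91 (SE 0.07, limma adjusted p = 8.3e-07), one of 197 genes (1.41%) for which this difference was called. The same difference of effects was 2.19 for R3hcc1, 1.25 for Bak1, 2.82 for Cc2d2a, 2.48 for Rhou, 2.73 for Dennd6b and 2.20 for Nr2c1, all called. For each of these 7 genes the fall in the control was between -1.95 and -3.72, and with wild-type CTCF added it was smaller. The genes were picked by their fall in the control, and the same control libraries enter the difference of effects. This choice favours a smaller fall with wild-type CTCF. Lyrm9, left out by it, had a log2 difference of 0.09 in the control and of -2.48 with wild-type CTCF. For Scn3a the difference was 3.56 (SE 0.79) and missed the threshold (limma adjusted p = 0.0577). In RAD21 AID cells, of these 8 genes only Dennd6b was called lower (log2 difference -0.69). Scn3a was at 61.5 and 343 there and then at 24.3 and 31.4, and missed the threshold (log2 difference -2.36, limma adjusted p = 0.072). Mutated CTCF gave differences of effects of 2.01 for Mrps2 and 2.47 for R3hcc1, both among the 228 genes (1.64%) called for it. The fall with mutated CTCF was smaller than with wild-type CTCF for Mrps2, R3hcc1, Bak1 and Nr2c1. It was larger for Rhou (log2 differences -1.35 and -0.79), Cc2d2a (-1.09 and -0.70), Dennd6b (-1.25 and -0.99) and Scn3a (-2.51 and -0.57). Scn3a was still called lower with mutated CTCF (limma adjusted p = 0.0114). Mutated and wild-type CTCF were not tested against each other.

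Several of the largest rises recurred both with and without added CTCF, although the rises as a set were weaker with it. Of the 169 genes with a 2-fold rise tested in the overexpression experiment, 86 were called higher in the control (50.9%). With wild-type CTCF 64 of them were (37.9%), and 1544 of all 13938 genes were called higher. The median log2 difference of the 169 was 0.86 in the control and 0.44 with wild-type CTCF. Gnat1 rose by 5.30 in the control and by 3.65 with wild-type CTCF. Cyp1a1 was at 109 and 105 without IAA and at 883 and 833 with it in the control (log2 difference 2.99), and at 107 and 94.8 and then at 833 and 946 with wild-type CTCF (3.12). The difference between these effects was 0.13 (SE 0.14, limma adjusted p = 0.792). In RAD21 AID cells, which received a different auxin, Cyp1a1 was at 18.7 and 18.0 and then at 23.4 and 26.4 (log2 difference 0.42, limma adjusted p = 0.487). Serpinb9 rose in the control (2.45) and with wild-type CTCF (1.99), with a difference of -0.46 (SE 0.18, limma adjusted p = 0.332). Cyp1b1 rose by 3.15 and 3.02, and Igfbp5 by 1.79 and 1.49. For none of these 4 genes did the test find a difference between the effects, which does not show that they are equal. Ahrr had control libraries at 11.8 and 50.8 without and 26.3 and 206 with IAA, and was called in neither (log2 differences 1.54 and 1.71).

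**Figure D5:**
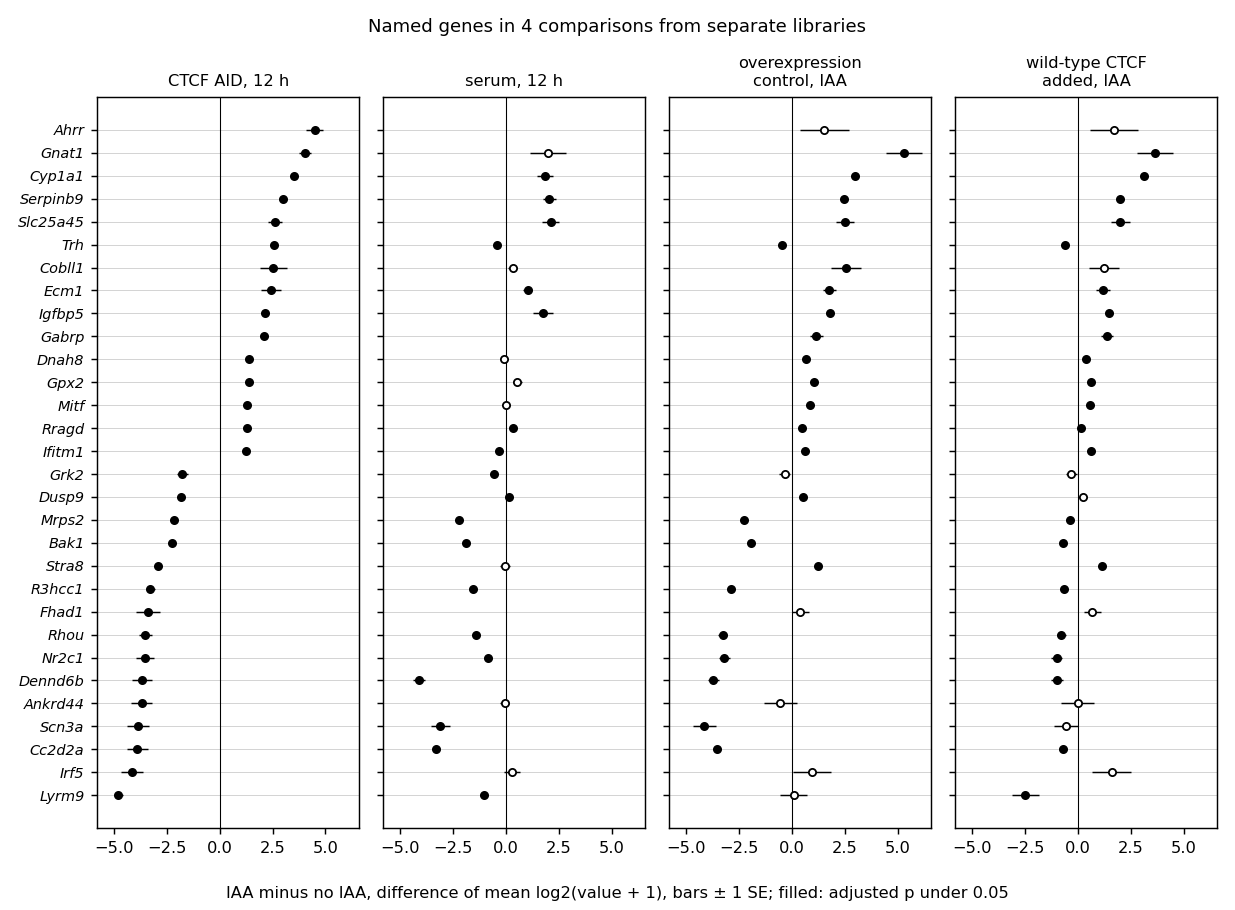
Difference of mean log2(value + 1) with and without IAA (bars are 1 SE) for the 30 named genes in this comparison, in serum, in the overexpression control and with wild-type CTCF added. Filled points passed an adjusted p under 0.05, and a missing point was not tested there. Mrps2, Bak1, R3hcc1, Rhou, Nr2c1, Dennd6b and Cc2d2a lie to the left in the first 3 panels and closer to 0 in the last, while Irf5, Ankrd44 and Fhad1 have filled points in the first panel and open or missing ones in the others.

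Other genes that stood out at 12 h were not called, or moved the other way, in at least 1 of the other tables. Irf5, at 102 and 280 at 0 h here, was at 7.67 and 6.78 in the untreated control and at 11.5 and 20.8 in serum, and was not called in either. Stra8, at 2162 and 1938 here, was at 277 and 276 in the untreated control, where it rose to 640 and 682 with IAA (log2 difference 1.25), and at 33.3 and 43.2 in serum, where it was not called. Trh, at 81.4 and 64.5 here, was at 763 and 768 in the untreated control and fell to 521 and 589 with IAA (log2 difference -0.46). Levels of separately normalised tables are set side by side only as a description. Lyrm9 fell in serum (log2 difference -1.04), had control libraries at 82.0 and 59.3 without and 32.3 and 168 with IAA, and fell with wild-type CTCF (-2.48, limma adjusted p = 0.0186). T, which rose here and in serum (1.70), fell in the control (-1.02, limma adjusted p = 0.00253). Dkk1 rose in the control too, by 3.88, and by 1.91 with wild-type CTCF, a difference of effects of -1.97 that was called.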

How the data were processed

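RNA of 32 libraries was sequenced after mRNA purification, per the labels' protocols. The authors deposited normalised counts per gene, which are treated as a signal, and how they normalised is not given in the sources used here. Trim Galore, Bowtie2, STAR, RSEM and DESeq2 and the build mm10 are named, without role, in the submitters' processing notes. Whole reads could not be recovered from the values, so no count test was run and the depth in reads is unknown. The CTCF AID table breaks off inside its last line, which was dropped. Groups follow the sample titles, against the treatment label of 4 overexpression libraries (titled mutated CTCF without IAA and wild-type CTCF with IAA).

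Genes whose mean over the 6 libraries reached 10 entered a limma 3.58.1 fit (R 4.3.3) of log2(value + 1) with a mean trend, all 3 times and no replicate term. The threshold was an adjusted p (Benjamini-Hochberg, every tested gene) under 0.05. Differences of low genes are understated on this scale. P-values measure the spread between samples that may be technical, and 2 libraries against 2 cannot give an exact permutation p below 0.333. Other tables were fitted alone in the same way. The fit was tested on simulated data. Alternatives were pseudocounts, filters, rescaling, the trend, the libraries in the fit and each library left out. Positions come from GENCODE M21 (GRCm38), matched for 100% of genes.

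Named genes are Ctcf, the 10 largest called rises and falls (higher group at 100 or more, groups apart, no provisional symbol), the 5 largest of each at 1000 or more, up to 4 called members per list, and matches of the CTCF motif. Other list members named were chosen after their values were seen. The comparison, members and lists were chosen with earlier results of these data known. Results on some genes are not reported here.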

Additional observations from a re-analysis of the deposited data

Results flagged for a closer look

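Some genes moved one way at 12 h in CTCF AID cells and the other way in every library of another table under IAA. These tables were normalised separately, so the difference was not tested. Stra8, with a log2 difference of -2.91 at 12 h, had one of 1.25 in the overexpression control. Dusp9, at -1.82, had 0.17 in serum and 0.54 in the control. Trh, at 2.58, had -0.40 in serum and -0.46 in the control. Irf5, at -4.17, had 0.95 in the control, and Fhad1, at -3.40, had 0.40 there, neither of them called. Both genes were low in the control. Irf5 was at 7.67 and 6.78 without and at 17.5 and 12.7 with IAA. Fhad1 was at 8.97 and 6.89 without and at 11.5 and 9.98 with IAA. From such levels a fall could hardly be seen. Ifitm1, at 1.23, had -0.31 in serum.

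Ifitm1 also differed between the 2 times of IAA in the same table. It was higher at 24 h than at 12 h by 0.54 on the log2 scale, a difference that was tested (limma adjusted p = 0.0337).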

How the results depend on the processing

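No called gene that is named reversed its direction under the alternatives tried. Sox2, not called, had log2 differences from -0.0402 (without 0 h replicate 2) to 0.000326 (without 0 h replicate 1). The 2438 calls became 1428 without the mean trend (624 instead of 1287 higher, 804 instead of 1151 lower) and 609 when a 2-fold difference was also asked. Leaving out 1 library gave 1007 to 2596 calls, 507 to 1377 higher and 460 to 1219 lower, the low ends where a 0 h or 12 h library was dropped. For differences of at least 2-fold these fits gave 114 to 174 higher and 248 to 464 lower, and a filter at a mean of 100 gave 80 and 178. Calls among list members, 204, became 125 without the trend and 90 to 229 with a library left out. A replicate block gave 2382 calls, 2221 of them shared with those reported; replicate numbers did not pair the libraries (deviations correlated with r of 0.0177 to 0.0404). Of 151 called genes followed singly, members of the lists that the text does not name included, 84 kept their call in all 4 fits that drop a 0 h or 12 h library and 33 lost it in all 4. The stricter motif, with NNGGC narrowed to GNGGC, was held by 4.05% of the matched genes called lower, 1.39% of those called higher and 1.51% of those tested. Medians of lists near 0 changed sign under some settings. With 2 libraries a group and unknown read depth, small changes of low genes were not detectable.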

Other observations

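Matrix genes, imprinted genes and genes of the early embryo and germline were also read at 12 h. Of 26 collagens and laminins, 2 were called higher (7.69%, against 9.39% of all genes) and 3 lower (11.5%, against 8.4%). Col9a2, a cartilage collagen, was at 683 and 608 at 0 h and at 91.6 and 84.1 at 12 h (log2 difference -2.86, SE 0.15, limma adjusted p = 0.000102), while in the overexpression control it rose with IAA (log2 difference 1.07). Of 35 imprinted genes tested, 6 were higher (17.1%, against 9.39%) and 5 lower (14.3%, against 8.4%). Peg3, a zinc finger protein, was at 1062 and 1038 and then at 1699 and 1715 (log2 difference 0.70), and Ndn was at 150 and 121 and then at 54.7 and 72.1 (log2 difference -1.09, call lost without replicate 1 of either time, highest limma adjusted p 0.0991).

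Of 17 germline genes none was higher and 2 were lower (11.8%, against 8.4%), among them Sycp3, a protein of the meiotic chromosome axis, at 573 and 497 and then at 273 and 234 (log2 difference -1.08). Of 7 genes of the 2-cell-like state 2 were lower (28.6%), Zscan4c at 107 and 106 and then at 38.7 and 64.1 (log2 difference -1.08) and Zscan4f. With 1 library left out, the call of Zscan4c was kept only without 12 h replicate 2 (log2 differences from -1.43 to -0.72), and that of Zscan4f was lost in all 4 fits. Zscan4 genes are near-identical copies. Glod5, a glyoxalase-domain gene on the X chromosome picked after its values were seen, was at 8.28 and 5.09 and then at 92.6 and 87.9 (log2 difference 3.60). Of 15 mitochondrially encoded transcripts, mt-Co3 was called lower (6.67%) and none higher, and that call was lost in all 4 fits that leave out a library (limma adjusted p from 0.0927 to 0.144).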
